A study of Mus musculus with 6 samples.

Results

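Immediate early genes of the AP-1 and EGR families were followed in cumulus granulosa cells of the mouse, which are the somatic companions of the oocyte. The 10 genes were Fos, Fosb, Fosl1, Fosl2, Jun, Junb, Jund, Egr1, Atf3 and Ier2. They were taken by symbol from the 24982 genes of the authors' deposited table, and all 10 were found there and had been tested. Cells of Kun-Ming mice, an outbred stock, gave 3 libraries labelled control and 3 labelled Atg5-KD, for hairpin RNAs directed at the autophagy gene Atg5. The text on hairpin transfection stands on the labels of both groups, and the sources used here do not give the agent used on control cells, the age of the mice or whether libraries came from separate cultures. The p-values therefore reflect differences among the libraries of a group, possibly technical ones.

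Immediate early genes are transcribed within minutes of a signal, without new protein synthesis. FOS proteins pair with JUN proteins through leucine zippers to form AP-1, which binds DNA, while EGR1 binds GC-rich sites through zinc fingers. In granulosa cells gonadotropins, acting through cAMP and EGF receptor ligands, are known to induce these genes, and so is the handling of cells during isolation.

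The table holds a mean over libraries, the base mean, in read counts normalized by the authors, with a log2 fold change, its standard error (SE) and a Wald test, and it holds no values per library. Fold changes are read as Atg5-KD over control, because the table's name lists its groups so. Atg5 gave no check of that reading, with a log2 fold change of -0.06 ± 0.14 (SE) in the authors' deposited table (adjusted p = 0.822, Wald test). Were the reading turned, each rise given here would be a fall. Rn45s, the ribosomal RNA locus, made up an estimated 1.17% of normalized counts in control and 17.9% in Atg5-KD, so scaling to all reads lowers every log2 fold change by 0.30. All reads here means the summed estimated counts of the table's genes, 13030758 in control and 16031948 in Atg5-KD. Rn45s gave 151955 and 2867935 of these, so calls under that scaling rest largely on this 1 locus. Of cumulus and granulosa markers, Inha, Gja1 and Inhba had base means of 30063, 37682 and 24381 in the authors' deposited table, against 2.34 for Cyp19a1 and 6.07 for Amh. Of 11 tested markers of this type, the authors' deposited table called 5 lower and 2 higher, or 63.6% beside 20.9% of all tested genes, with log2 fold changes of Slc38a3, an amino acid transporter, at -2.19, the estradiol-forming enzyme Hsd17b1 at -0.79, the lineage factor Foxl2 at -0.49 and Nr5a2, a nuclear receptor, at 0.62. Of 13 leukocyte markers, the authors' deposited table called 9 lower and 0 higher, beside 10.5% and 10.4% of all tested genes. At an unadjusted p under 0.05, 0 of 13 were higher, and none had a base mean of 0.

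Fos and Egr1 were lower in the libraries labelled Atg5-KD, and the other 8 genes did not pass the test. Fos fell 2.65-fold and Egr1 1.47-fold in the authors' deposited table. Thus 2 of 10 were called lower and 0 higher at a Wald adjusted p under 0.05, beside 10.5% of all 14835 tested genes called lower and 10.4% called higher. At an unadjusted p under 0.05, 3 were lower and 2 higher. That limit takes in every called gene, so it marks at least 20.9% of all tested genes. The exact share was not counted, so unadjusted counts here and elsewhere in the text have no exact background. The share of 2 in 10 is close to the 20.9% of tested genes called in either direction. The median log2 fold change of the 10 genes was -0.07, against 0.00417 over all tested genes. The plot of log2 fold changes shows Fos at the far left, with 5 genes below 0 and 5 above as deposited.

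**Figure D1:**
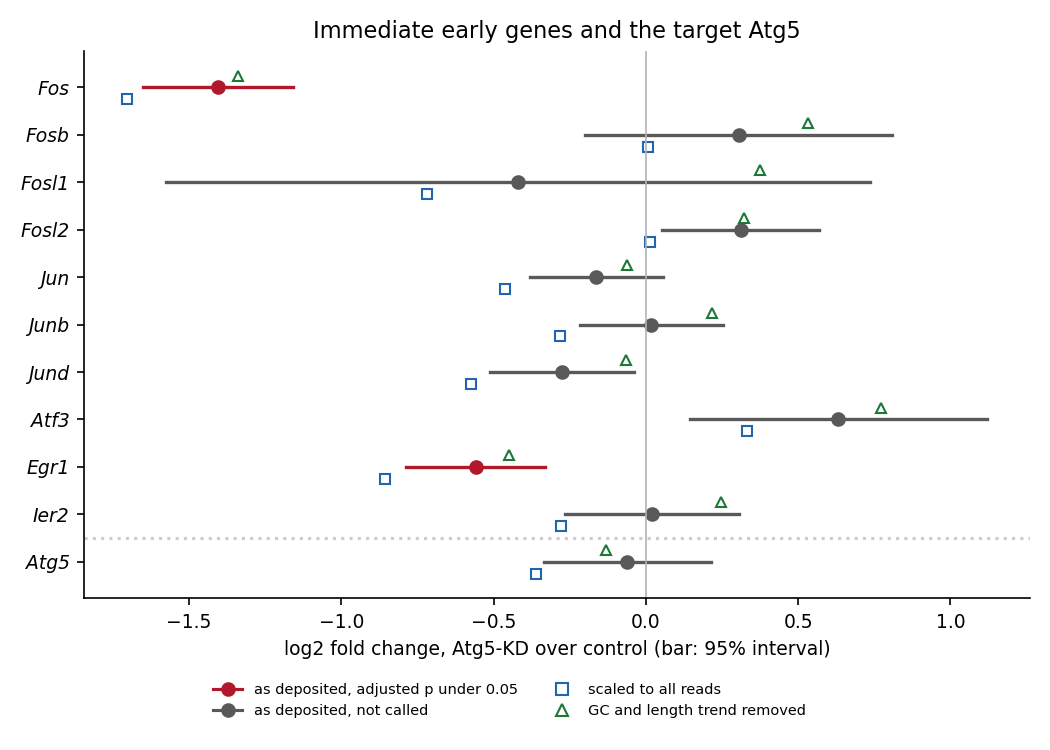
Log2 fold change, Atg5-KD over control, of the 10 early genes and Atg5 in the authors' deposited table (filled circles, with 95% intervals as bars), with the value scaled to all reads (squares) and after removal of the GC and length trend (triangles). Fos at -1.40 and Egr1 at -0.56 are called lower as deposited, and both stay left of 0 under both alternatives.

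Fos, the founding FOS protein, gave the largest change. From the base mean and fold change in the authors' deposited table, its group means were estimated at 1367 normalized counts in control and 516 in Atg5-KD, so that it fell by 62.2%. The log2 fold change was -1.40 ± 0.13 (SE) in the authors' deposited table (adjusted p = 1.69e-26, Wald test), with a 95% interval from -1.65 to -1.16. Its Wald statistic ranked 6 from the lowest among the 14835 tested genes. In GRCm38.p6, Fos (gene 14281) occupies chromosome 12 from 85473890 to 85477274, and its principal transcript in GENCODE M21 has 4 exons. The call held under every alternative run, from -1.70 when scaled to all reads to -1.34 after removal of the GC and length trend.

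Most markers of leukocytes, smooth muscle and stroma, and 5 of the 11 cumulus and granulosa markers given above, were lower together with Fos. Another 2 of the 11 were higher, and no endothelium or oocyte marker was called. Summed over the 13 leukocyte markers, the estimated level was 2272 normalized counts in control and 561 in Atg5-KD. In the authors' deposited table, smooth muscle markers were called lower in 5 of 5 cases and stroma markers in 5 of 6. Of all tested genes, 10.5% were called lower. Summed levels in control and Atg5-KD were 10937 and 4886 for smooth muscle, and 7976 and 4662 for stroma. In these bulk samples fewer cells of a type and less RNA per cell cannot be told apart, and the part of these cells in the fall of Fos was not tested.

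Promoter letters are shown for 3 genes that hold TGACG, the core of the cAMP response element, in the 250 bases before their start, because Fos is called lower among them and Junb and Atf3 are not. RefSeq promoters of GRCm38.p6 were matched for 7 of the 10 genes. Egr1, Fosl1 and Ier2 were not matched. Capitals mark a match to a searched motif on either strand, and the sequences run 5′ to 3′ on the strand of the gene.
Fos, chr12:85473640-85473889, plus strand: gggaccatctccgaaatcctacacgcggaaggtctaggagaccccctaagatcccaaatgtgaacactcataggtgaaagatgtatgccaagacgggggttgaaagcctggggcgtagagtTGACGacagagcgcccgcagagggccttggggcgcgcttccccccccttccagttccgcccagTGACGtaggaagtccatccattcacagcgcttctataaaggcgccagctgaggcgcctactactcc
Junb, chr8:84978749-84978998, minus strand: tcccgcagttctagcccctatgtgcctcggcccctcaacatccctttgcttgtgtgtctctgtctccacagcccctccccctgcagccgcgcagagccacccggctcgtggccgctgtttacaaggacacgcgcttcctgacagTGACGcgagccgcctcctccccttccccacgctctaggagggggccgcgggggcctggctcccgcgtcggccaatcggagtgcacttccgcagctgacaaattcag
Atf3, chr1:191183334-191183583, minus strand: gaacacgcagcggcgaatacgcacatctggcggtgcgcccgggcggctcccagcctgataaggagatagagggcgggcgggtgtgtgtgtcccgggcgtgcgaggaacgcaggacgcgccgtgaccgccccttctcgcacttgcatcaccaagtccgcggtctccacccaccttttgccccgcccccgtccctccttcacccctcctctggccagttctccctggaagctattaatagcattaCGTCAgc

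Fos has the core at 2 places, 125 to 129 and 62 to 66 bases before its start, Junb at 102 to 106 and Atf3, on the opposite strand, at 3 to 7. The window of Fosb also holds the core, but it is set on a transcript start within the gene, so that 73 of its 250 bases lie inside the span of Fosb given here, and its letters and positions are not shown. The core occurs in 17.8% of all 32851 promoter windows of the same length from RefSeq. The motif GCGNGGGCG, bound by EGR proteins, was matched in Fosl2 at 71 to 79 bases before the start, in the window of Fosb, and in 4.70% of all windows. The full element TGACGTCA, which contains the core on both strands, the AP-1 motif TGANTCA and the CArG box bound by SRF had 0 matches in the 7 windows, against 1.55%, 6.75% and 1.47% of all windows. A match is a run of letters and not a measured binding site. Bases further than 250 from the start were not searched, and Egr1 had no window. The 0 matches therefore do not mean that Fos or Egr1 lacks a CArG box.

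None of the other 3 FOS genes passed the test. Fosl2, which encodes FRA2, had estimated means of 10443 normalized counts in control and 12958 in Atg5-KD, and a log2 fold change of 0.31 ± 0.13 (SE) in the authors' deposited table (adjusted p = 0.0764, Wald test). Scaled to all reads, its value was 0.01. Fosb was estimated at 67.8 and 83.7 normalized counts, with 0.30 ± 0.26 (SE) in the authors' deposited table (adjusted p = 0.449, Wald test). Fosl1, which encodes FRA1, was the least abundant, at an estimated 14.7 and 11.0 normalized counts. Its log2 fold change of -0.42 ± 0.59 (SE) in the authors' deposited table had a 95% interval from -1.58 to 0.74, which contains both 0 and the value of Fos. The upper end of the interval of Fos, -1.16, lay below the lower ends of those of Fosb (-0.20) and Fosl2 (0.05), and differences between genes were not tested. On chromosome 5 Fosl2 runs from 32136472 to 32157840, on chromosome 7 Fosb from 19302696 to 19310118 and on chromosome 19 Fosl1 from 5447698 to 5455938.

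Fosl2 made up more of the estimated FOS transcript pool in Atg5-KD than in control. To compare levels between genes, estimated group means were divided by the length of the principal transcript in kilobases (kb). On that scale Fos stood at 648 counts per kb in control and 245 in Atg5-KD, and Fosl2 at 1597 and 1982. Fos made up 28.5% of the summed FOS level in control and 10.9% in Atg5-KD, while Fosl2 made up 70.3% and 87.9%. Fosb and Fosl1 together stayed a small part, Fosb at 0.789% and 0.981% and Fosl1 at 0.348% and 0.262%. The summed FOS level was 2272 counts per kb in control and 2255 in Atg5-KD, a log2 difference of -0.01, or -0.31 when scaled to all reads. Without division by length the summed difference was 0.19, or -0.11 when scaled to all reads, so the direction of the pool depends on both choices. The shares do not depend on the scaling of libraries, and no test was made of them because the table has no values per library.

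**Figure D2:**
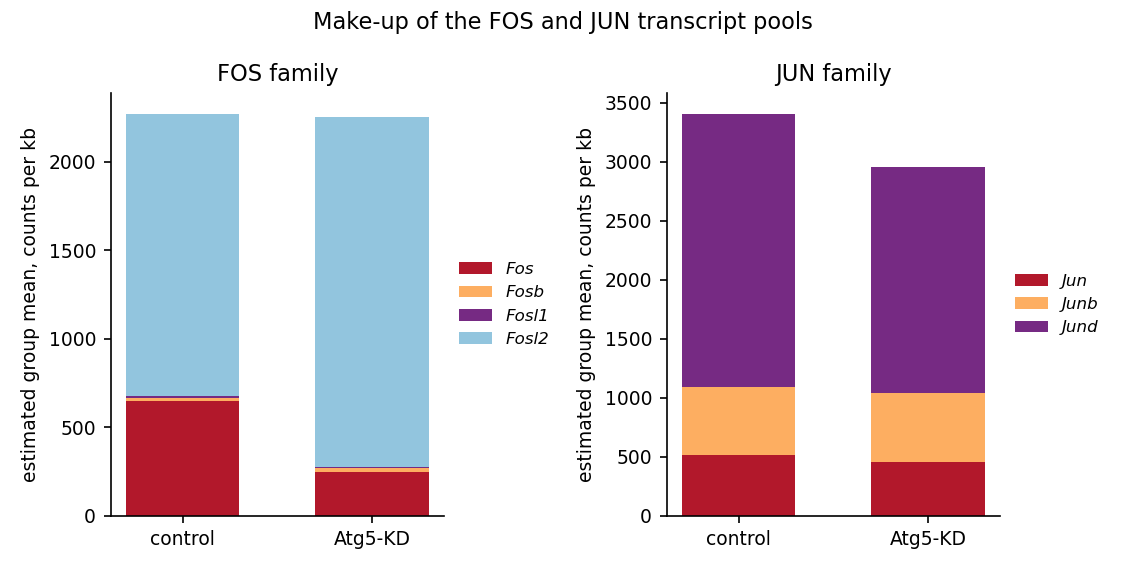
Estimated group means in normalized counts per kb of principal transcript, stacked by gene, for the FOS family (left) and the JUN family (right) in control and Atg5-KD. The FOS bars have nearly equal heights, 2272 and 2255, with a smaller Fos part in Atg5-KD, and the JUN bars are 3409 and 2957.

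No JUN gene was called in the authors' deposited table. Jun, whose protein pairs with itself or with FOS proteins, had estimated means of 1634 normalized counts in control and 1460 in Atg5-KD and a log2 fold change of -0.16 ± 0.11 (SE) in the authors' deposited table (adjusted p = 0.328, Wald test). Junb, a weaker activator that can oppose Jun, was estimated at 1040 and 1053 normalized counts. Its log2 fold change of 0.02 in the authors' deposited table had a 95% interval between -0.22 and 0.25. Jund, the member with the steadiest expression across cell states, was estimated at 3872 and 3198 normalized counts, with -0.28 ± 0.12 (SE) in the authors' deposited table (adjusted p = 0.0884, Wald test). Scaled to all reads, all 3 were called lower, as were 38.7% of all tested genes, with Jun at -0.46, Junb at -0.28 and Jund at -0.57, so the sign of Junb turned from 0.02. After removal of the GC and length trend, Jun was at -0.06, Junb at 0.22 and Jund at -0.07, and none was called.

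The JUN genes are rich in G and C. The longest GENCODE transcript of Jun was 55.5% GC, that of Junb 62.6% and that of Jund 67.1%. Over all tested genes the median log2 fold change of the authors' deposited table declined with GC content, from 0.18 in 3717 genes of up to 45% GC to -0.19 in 3331 genes above 55%. Fos, at 51.9% GC, and Egr1, at 57.3%, were called with that trend removed.

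Jund made up 68.1% of the summed JUN level per kb in control and 64.8% in Atg5-KD, Junb 16.9% and 19.7%, and Jun 15.0% and 15.5%. The ratio of Fos to Jun per kb was 1.27 in control and 0.535 in Atg5-KD, and that of Fos to Junb 1.13 and 0.421. The principal transcripts of Jun, Junb and Jund have 1 exon each. Jun lies on chromosome 4 from 95049036 to 95052222, and Jund (70697739 to 70700616) and Junb (84976909 to 84978748) lie on chromosome 8.

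The sources used here do not say whether counting used strand, so reads of overlapping genes on opposite strands may not be told apart. An antisense gene, Gm11175, covers 52.6% of the exon bases of Jund in GENCODE M21. Ccdc85b shares 57.2% of those of Fosl1 and had a log2 fold change of -0.10 in the authors' deposited table. Prdx2 shares 7.52% of those of Junb and stood at 0.19 in the authors' deposited table, and Junos shares 7.28% of those of Jun. No gene of the annotation overlapped Fos, Fosb, Fosl2, Egr1 or Ier2.

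Egr1, a zinc finger factor that gonadotropins induce in granulosa cells, fell. Its group means were estimated at 1497 normalized counts in control and 1016 in Atg5-KD. The log2 fold change was -0.56 ± 0.12 (SE) in the authors' deposited table (adjusted p = 3.14e-05, Wald test), with a 95% interval from -0.79 to -0.33. It was called lower under each scaling, filter and trend setting, between -0.86 scaled to all reads and -0.45 with the trend removed, but its 1.47-fold change is under a limit of 1.5-fold, which leaves 4.31% of tested genes called lower. Per kb, Egr1 stood at 0.515 times the level of Fos in control and 0.925 times in Atg5-KD.

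The partners of Egr1 moved in both directions. Of 4 tested EGR factors and NAB corepressors, the authors' deposited table called 1 higher and 1 lower, or 50% beside 20.9% of all tested genes, with a median log2 fold change of -0.16. Nab2, a corepressor that EGR1 is known to induce and that binds it, was at -0.34 ± 0.12 (SE) in the authors' deposited table (adjusted p = 0.0303, Wald test), and with the trend removed it was not called (adjusted p = 0.442). Nab1, the related corepressor, was at 0.47 ± 0.11 (SE) in the authors' deposited table (adjusted p = 0.000389, Wald test), and scaled to all reads it was not called (adjusted p = 0.222). Egr2 stood at -0.49 ± 0.29 (SE) and Egr3 at 0.03 ± 0.41 (SE) in the authors' deposited table, both named after their values were seen and neither called. Egr4 had a base mean of 0.499 in the authors' deposited table and was not tested.

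Atf3 and Ier2 complete the set. Atf3, a stress-induced factor that pairs with JUN proteins, was estimated at 64.7 normalized counts in control and 100.3 in Atg5-KD. Its log2 fold change of 0.63 ± 0.25 (SE) in the authors' deposited table missed the threshold (adjusted p = 0.0522, Wald test). It passed with genes under a base mean of 50 left out (adjusted p = 0.0441), with centring on the median (adjusted p = 0.0489) and with the trend removed (adjusted p = 0.0171), settings that call 12.6%, 10.7% and 7.04% of tested genes higher. It stood at 0.33 scaled to all reads (adjusted p = 0.287). Ier2, a nuclear protein of the early response, was estimated at 613 and 622 normalized counts, and its log2 fold change of 0.02 in the authors' deposited table had a 95% interval between -0.27 and 0.31. Atf3 lies on chromosome 1 from 191170296 to 191183333 and Ier2 on chromosome 8 from 84661331 to 84662852.

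Levels per kb fell into 3 ranges. Jund and Fosl2 stood highest in both groups, at 2322 and 1597 counts per kb in control and 1917 and 1982 in Atg5-KD. In control Fos, Junb, Jun, Ier2 and Egr1 followed at 648, 575, 512, 403 and 334 counts per kb, and Atf3, Fosb and Fosl1 were lowest at 32.6, 17.9 and 7.90. In Atg5-KD the middle range ran in the order Junb (582), Jun (458), Ier2 (408), Fos (245) and Egr1 (227), and the lowest 3 kept their order. Whether neighbours in this order differ beyond the spread between libraries cannot be read from the table.

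**Figure D3:**
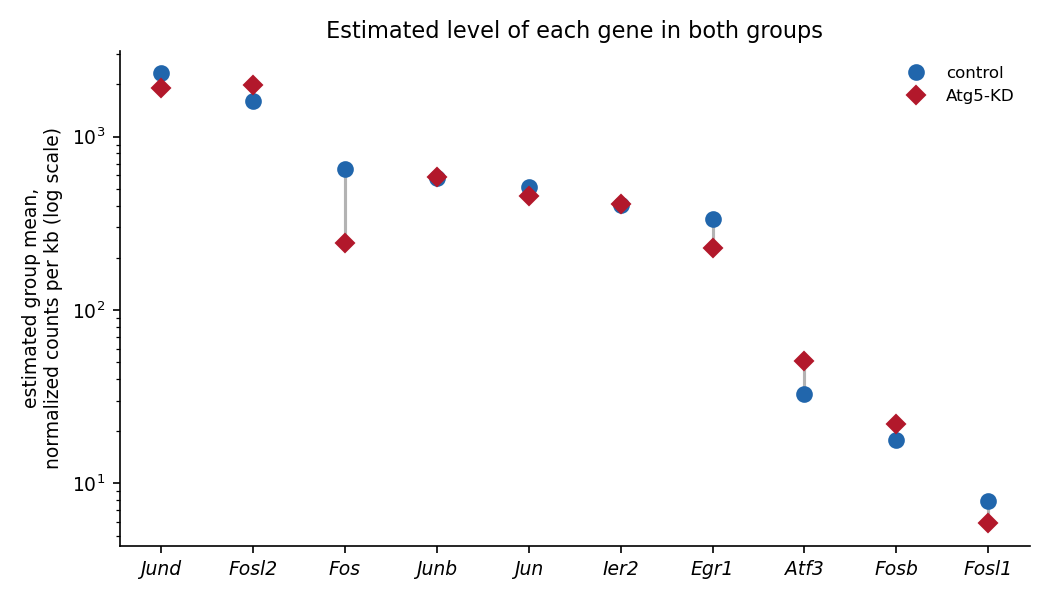
Estimated group means of the 10 genes in normalized counts per kb of principal transcript, on a log scale, in control (circles) and Atg5-KD (diamonds), ordered by the control level. Fos goes from 648 to 245 counts per kb, from the third highest level to below Ier2.

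These genes were somewhat less precisely measured than others of like level. The SE of a log2 fold change grows with the spread between libraries, and each gene was set beside the 200 tested genes nearest in base mean. For all 10 the SE in the authors' deposited table was above the median of those 200, from 1.01 times for Fosl1 to 1.31 times for Fosl2. Ier2 had an SE of 0.15 in the authors' deposited table, larger than that of 95% of its neighbours, and Fosl2 one of 0.13, larger than that of 89.0%. For Fos the ratio was 1.13 and for Egr1 1.11. The 200 neighbours of Fosl2 span base means from 6840 to 20023, and SEs in such a table share information between genes, so the ratios are a description only.

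**Figure D4:**
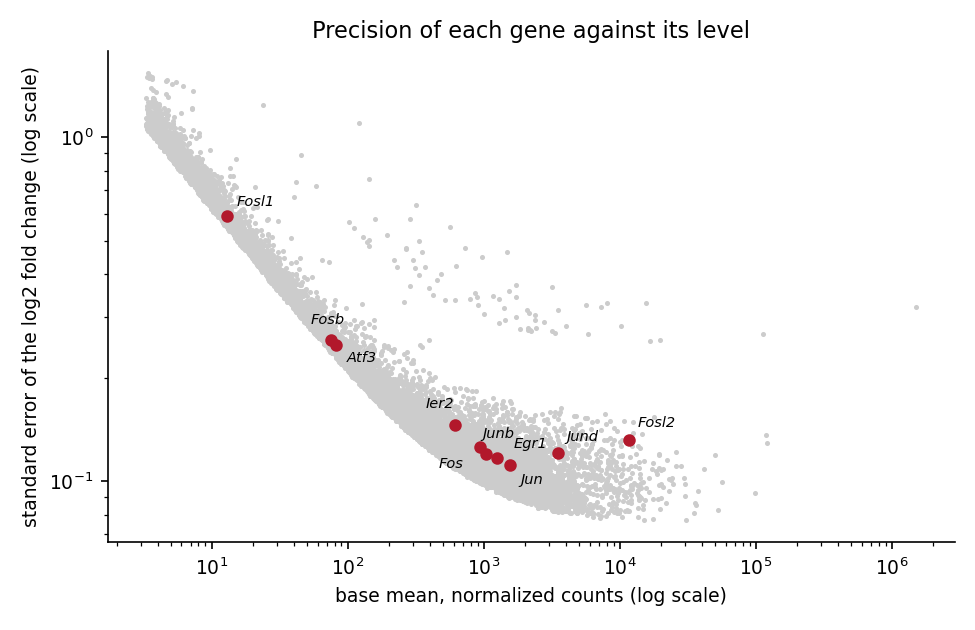
Standard error of the log2 fold change against base mean in the authors' deposited table, both on log scales, for all 14835 tested genes (grey) and the 10 early genes (red). The red points follow the grey band, with Ier2, Jund and Fosl2 in its upper part and Fosl1 at the imprecise, low end.

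Other AP-1 relatives with a basic leucine zipper were called about as often as genes at large. Of 9 tested, the authors' deposited table called 2 lower and 0 higher, or 22.2% beside 20.9% of all tested genes, with 4 lower and 0 higher at an unadjusted p under 0.05 and a median log2 fold change of -0.23. Mafk, a small MAF protein, was at -0.33 ± 0.11 (SE) and Maf at -0.39 ± 0.13 (SE) in the authors' deposited table (adjusted p = 0.0129 and 0.0231, Wald test). With the trend removed Maf was called and Mafk was not (adjusted p = 0.155).

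Among 34 tested early genes of other families the authors' deposited table called 8 lower and 4 higher, or 35.3% called beside 20.9% of all tested genes, with a median log2 fold change of -0.11. Phlda1, a gene induced by growth factors, fell 2.63-fold in the authors' deposited table, from an estimated 634 to 241 normalized counts (adjusted p = 7.18e-19, Wald test). Klf2, a zinc finger factor, fell 2.25-fold, and Ctgf, a secreted matrix protein and known SRF and YAP target, 1.49-fold in the authors' deposited table. The 4 higher genes were Btg2, an inhibitor of proliferation, at 0.73, Csrnp1 at 0.47, Klf6 at 0.46 and Sik1, a kinase induced by cAMP, at 0.39 in the authors' deposited table, where the last 3 were named after their values were seen. Scaled to all reads, 18 of the 34 were lower and 1, Btg2 at 0.43, higher, beside 38.7% and 3.6% of all tested genes. With the GC and length trend removed, 6 were lower and 6 higher, beside 8.23% and 7.04% of all tested genes. The median was then -0.02, and Ctgf had no value.

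For 27 genes upstream of the early response the authors' deposited table held 9 calls, 5 upward and 4 downward, or 33.3% beside 20.9% of all tested genes, with a median log2 fold change of 0.08. Scaled to all reads, 2 rose and 13 fell, beside 3.6% and 38.7% of all tested genes, and the median was -0.21. Srf, the factor that binds CArG boxes of Fos and Egr1, fell 1.46-fold in the authors' deposited table, from an estimated 946 to 646 normalized counts (adjusted p = 1.65e-05, Wald test). The gene of its cofactor MRTF-A, Mkl1, was at -0.38 in the authors' deposited table and was named after its value was seen. Lhcgr, the luteinizing hormone receptor, was 5.11-fold higher in the authors' deposited table.

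Kinases of the cascade that activates early genes were among the calls. Map2k2, a MAP kinase kinase, was at -0.34 and Mapk3, which encodes ERK1, at -0.30 in the authors' deposited table, with the upstream kinase Braf at 0.45. Mapk3 and Braf, and Creb1 at 0.37 in the authors' deposited table, were named after their values were seen. After removal of the GC and length trend, Mapk3, Map2k2, Braf and Creb1 were not called (adjusted p = 0.132, 0.184, 0.366 and 0.653), and Srf and Lhcgr were, while Mkl1 had no value. The list then had 2 higher and 1 lower, beside 15.3% of all tested genes called in either direction.

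Genes known from other work as AP-1 or EGR targets did not share a direction. Of 16 tested, the authors' deposited table called 5 higher and 3 lower, or 50% beside 20.9% of all tested genes, with a median log2 fold change of 0.14. Scaled to all reads, 3 rose and 7 fell, beside 3.6% and 38.7% of all tested genes. Under that scaling the median was -0.16, and Hmox1 and Timp1 were not called (adjusted p = 0.173 and 0.180). Plau, the urokinase protease, was at -0.58 ± 0.09 (SE) and Tgfb1, a growth factor, at -0.57 ± 0.13 (SE) in the authors' deposited table (adjusted p = 4.29e-10 and 8.80e-05, Wald test). Hbegf, a ligand of the EGF receptor, was at -0.72 ± 0.25 (SE) in the authors' deposited table and was named after its value was seen. Ereg, another such ligand, rose 1.99-fold and Hmox1, which breaks down heme, 1.41-fold in the authors' deposited table (adjusted p = 0.000538 and 0.000455, Wald test). The other 3 higher genes, named after their values were seen, were Il6 at 1.72 ± 0.61 (SE), Lif at 0.80 ± 0.20 (SE) and Timp1 at 0.53 ± 0.14 (SE) in the authors' deposited table. Il6, the least abundant of these, and Hbegf were not called with the trend removed (adjusted p = 0.243 and 0.0762). Under that setting Ptgs2 was called lower at -0.47 and Ptges higher at 0.28, both named after their values were seen. The list then had 6 higher and 3 lower, beside 7.04% and 8.23% of all tested genes. The strip plot of the lists shows both directions in each list with more than 10 tested genes.

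**Figure D5:**
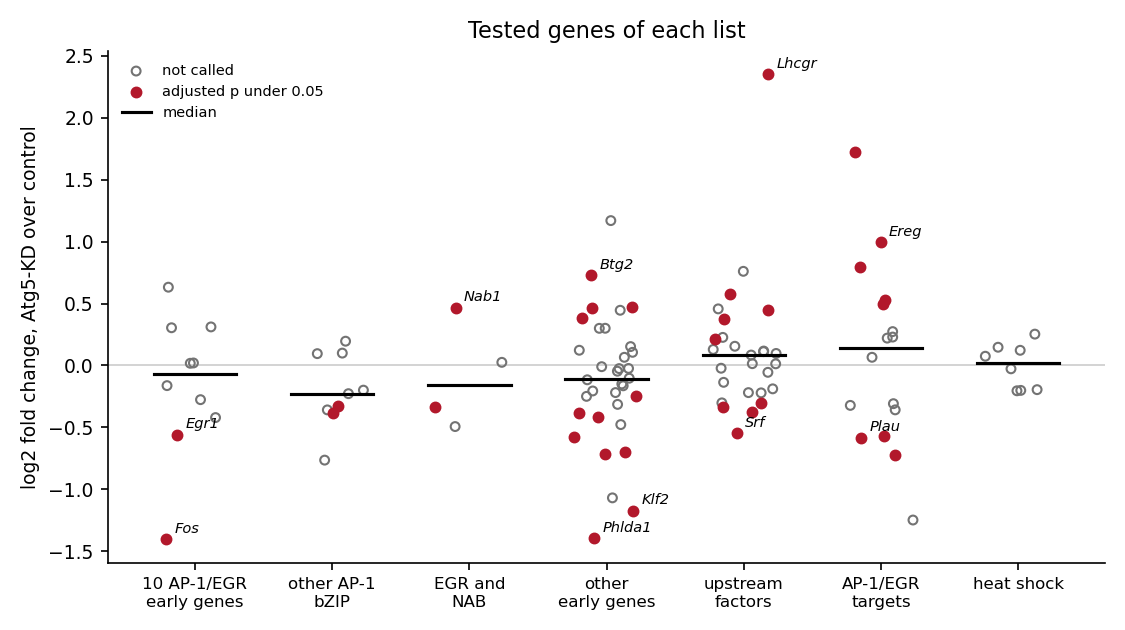
Log2 fold change, Atg5-KD over control, in the authors' deposited table for every tested gene of 7 lists (points spread sideways at random), with calls at an adjusted p under 0.05 filled and list medians as bars. Fos and Phlda1 lie near -1.40, Lhcgr is at 2.35, and heat shock genes have no call.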

How the data were processed

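RNA of 6 libraries, 3 labelled control and 3 labelled Atg5-KD, had been reduced to a single comparison by the authors. Tools listed in the submitters' processing notes, without roles, are DESeq2 1.30.1, StringTie 2.1.4, featureCounts 1.6.2 and STAR, and the build is mm10. Per the file headers, the deposited columns are those of a DESeq2 results table. The base mean is a signal deposited by the authors, a mean of normalized counts. The fold change and its standard error are on the log2 scale in the deposited table. The authors also deposited the Wald statistic, a score. The p-value and adjusted p-value were computed by the authors, and at a tolerance of 1e-06 0 rows differed from recomputed values. Of 24982 rows, 14835 have an adjusted p.

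The deposited Wald test was used with a threshold of 0.05, so p-values could not be refitted and depth per library is unknown. Estimated group means solve base mean and fold change for 3 libraries a group. Intervals cover 95% under normality. Alternatives shifted the log2 fold changes by scaling or centring, changed the filter, or removed a robust cubic trend of the statistic on GC content and length (98.96% of tested genes, GENCODE M21, statsmodels 0.14.6), with Benjamini-Hochberg adjustment redone. Values given with the trend removed are the remaining statistic times the SE. The sources used here do not name the counting annotation, and GRCm38.p6 coordinates are from RefSeq. The members and lists were chosen with earlier results of these data known. Named genes were Atg5, the 10 members, and up to 4 called genes of smallest adjusted p in each other list, or its 2 most abundant where none was called. Results of a few of these genes are not reported here.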

Additional observations from a re-analysis of the deposited data

How the results depend on the processing

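The falls of Fos and Egr1 kept their direction and their call under all 5 scaling, filter and trend settings, and 1 gene was left lower when at least 1.5-fold was required. Scaled to all reads, 5 of the 10 genes were lower (Jun, Junb and Jund in addition), the median became -0.37, Junb turned to -0.28 and Ier2 to -0.28. Beside these counts, 38.7% of all tested genes were lower and 3.6% higher under that scaling. The median of the members was 0.23 with the GC and length trend removed. It was 0.02 over members with a base mean of at least 50, so its sign depended on the setting. Atf3 made 1 higher gene with centring on the median, with a base mean of at least 50 and with the trend removed. Fosl1 turned to 0.37 with the trend removed. That trend was fitted to the Wald statistic and the remainder multiplied by each gene's SE, so genes with a large SE are moved further. The sign of Fosl1, and the median of 0.23, depend in part on that step. Atg5 itself was called lower when scaled to all reads (-0.36, adjusted p = 0.0269), as were 38.7% of all tested genes, and under no other setting. No paired analysis was possible because the table has no columns per library, and leaving out each replicate was not run for the same reason. Depth per library is unknown, and the low count of Fosl1 goes with an SE of 0.59.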

Other observations

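Heat shock genes, which are known to rise together with early genes when tissue is dissociated, were not called. The Wald tests of the authors' deposited table called none of 8, 0 in each direction, beside 20.9% of all tested genes. An unadjusted p under 0.05 marked 1 as lower and 0 as higher. When scaled to all reads, 5 were lower, beside 38.7% of all tested genes. The most abundant, Hspa8, a constitutive chaperone, stood at -0.20 ± 0.09 (SE) and Hsp90aa1 at 0.12 ± 0.09 (SE) in the authors' deposited table, and their median log2 fold change was 0.02. The inducible Hspa1a and Hspa1b, named after their values were seen, had base means of 24.9 and 52.3 and log2 fold changes of 0.15 and 0.25 in the authors' deposited table.

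Markers of endothelium and oocyte were not called either. Of the tested markers, 0 of 6 and 0 of 4 passed the authors' Wald test, beside 20.9% of all tested genes. At an unadjusted p under 0.05, 1 endothelial marker was lower and 0 oocyte markers were lower or higher. Median log2 fold changes were -0.42 for endothelium and 0.25 for oocyte. Base means were at most 69.5 and 19.8, so a missing call does not mean an unchanged level. Egfl7 and Eng of the endothelium had base means of 69.5 and 67.9, and Gdf9 and Zp2 of the oocyte 19.8 and 15.8, in the authors' deposited table.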
